A study of Mus musculus with 27 samples.

Results

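The genes of retinal dopamine signalling and of melatonin synthesis were followed in whole mouse retina through development. The set comprised 8 genes chosen by name, namely Th, Ddc, Slc6a3, Slc18a2, Drd2, Drd4, Adcy1 and Aanat, out of 38168 entries in the expression table. A gene was found by its symbol. For a symbol listed repeatedly, the row of highest mean level was used. An entry was present for 7 of the 8 genes. Slc6a3, which encodes the plasma membrane dopamine transporter, was not analysed here. Of the 7 genes, 6 passed the filter for low values (a level of 1 CPM or more in 3 libraries or more, CPM being reads scaled to the same total in every library), as did 31760 of all entries. Ddc did not pass.

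Retinas of wild type C57BL/6J mice were sequenced at embryonic days E14 and E17 and postnatal days P1, P6, P15, P28 and P60, giving 27 libraries. The groups at E14, E17 and P6 held 3 libraries each, those at P1, P15 and P28 held 4 each, and that at P60 held 6. No genotype, drug or light treatment was compared, so every mouse was an untreated wild type and age was the variable compared. Tissue was taken in the light phase of a 12 h light and 12 h dark cycle, between about 14.00 and 18.00 hours, and the hour of each library was not known. The study's methods describe pools of several animals at each age, except that 4 of the 6 P60 libraries came from single mice and 2 from pools of 3 mice. The labels instead give 3 retinas for every library, and the sources used here do not say which P60 libraries were pools. Embryos and P1 pups were of mixed sex whereas older mice were males. Sex and age therefore cannot be told apart across the step from P1 to P6. The same holds wherever later ages are set against embryos, as for P15, P28 and P60 against E14 and E17. The reads to which the CPM values were scaled, as recovered from these values, ranged from 7077781 to 11332323 per library. The paper states a higher number of sequenced reads per library. The count of 3 reads that serves as the limit of detection corresponded to between 0.265 and 0.424 CPM. Markers of photoreceptors, amacrine cells and ganglion cells were detected at every age. At P60 replicates 1 and 2 did not overlap replicates 3 to 6 in Slc18a2, Adcy1, Aanat and Drd2. Pooling at P60 cannot be matched to these libraries, and the comparisons that use P60 are also given without replicates 1 and 2.

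Dopamine in the retina is made and released by a sparse class of amacrine cell. Tyrosine hydroxylase (Th) forms L-DOPA from tyrosine, aromatic L-amino acid decarboxylase (Ddc) converts it to dopamine, and the vesicular monoamine transporter VMAT2 (Slc18a2) loads it into vesicles. Dopamine D2 receptors (Drd2) serve among other roles as autoreceptors, and D4 receptors (Drd4) are known in photoreceptors, where they couple to inhibition of adenylyl cyclase. The calcium-stimulated adenylyl cyclase type 1 (Adcy1) produces cAMP, which in the photoreceptors of many vertebrates controls arylalkylamine N-acetyltransferase (Aanat), the penultimate enzyme of melatonin synthesis. Several of these transcripts are known to follow the time of day, and laboratory C57BL/6J mice are known to make little melatonin.

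Promoter sequences from RefSeq (GRCm38.p6) were present for 7 of the 8 genes. Aanat is named only. The table gives 300 bases per start site, from 250 before to 50 after it. The cAMP response element TGACGTCA, which reads the same on both strands, occurred in this window in Th and Slc18a2, the enzyme and the vesicle transporter of the dopamine cell, and in 1.79% of all 32851 windows. Sequences are shown for these, and for Drd4 as the gene with the largest change with age. Each runs 5′ to 3′ on the gene's strand, from 250 bases before to 10 after the RefSeq start, with the cAMP response element in capitals.
Th, chr7:142899986-142900245, minus strand: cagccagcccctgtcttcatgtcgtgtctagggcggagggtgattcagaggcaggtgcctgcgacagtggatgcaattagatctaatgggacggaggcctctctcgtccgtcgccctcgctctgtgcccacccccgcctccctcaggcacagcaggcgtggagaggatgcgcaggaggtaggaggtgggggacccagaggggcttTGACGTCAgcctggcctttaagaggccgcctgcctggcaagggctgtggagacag
Slc18a2, chr19:59260628-59260887, plus strand: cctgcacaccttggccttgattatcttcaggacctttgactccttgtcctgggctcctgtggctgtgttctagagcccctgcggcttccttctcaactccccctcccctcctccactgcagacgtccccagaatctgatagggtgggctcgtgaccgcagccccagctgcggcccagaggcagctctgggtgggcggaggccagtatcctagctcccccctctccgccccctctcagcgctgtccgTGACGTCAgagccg
Drd4, chr7:141291768-141292027, plus strand: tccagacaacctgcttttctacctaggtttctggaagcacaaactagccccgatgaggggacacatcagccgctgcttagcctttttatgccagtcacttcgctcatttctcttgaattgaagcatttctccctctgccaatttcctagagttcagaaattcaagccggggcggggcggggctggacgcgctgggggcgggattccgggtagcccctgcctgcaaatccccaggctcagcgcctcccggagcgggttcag
The element began 45 bases before the start site in Th and 4 bases before it in Slc18a2, where it ran across the start. Drd4 held none of the motifs searched. The E-box CACGTG, the core of the sequence bound by CLOCK and BMAL1, was found in the windows of Adcy1 and Slc6a3, and in 7.15% of all windows. TAATCC or its reverse complement GGATTA, the core bound by the photoreceptor factors CRX and OTX2, was found in none of the 7 genes' windows and in 7.06% of all windows. These are matches of letters and were not measured as bound sites.

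Levels of 5 of the 6 genes tested differed between mature retina (P15, P28 and P60) and embryonic retina (E14 and E17). Drd4, Drd2, Adcy1 and Aanat were higher in mature retina and Slc18a2 was lower. At an adjusted p below 0.05 (limma on log2(CPM + 1), Benjamini-Hochberg over all entries tested), 75.4% of all entries tested were called in this comparison, 35.0% as higher and 40.4% as lower, so the count of genes called lies near that of the transcriptome at large. The same 5 genes also passed a change of at least 2-fold, as did 31.0% of all entries tested. The median log2 fold change was 1.80 over the 6 genes and -0.06 over all entries tested. Without P60 replicates 1 and 2 the same 5 genes were called by limma, with log2 fold changes of 5.76 for Drd4, 3.09 for Drd2, 2.60 for Adcy1, 1.11 for Aanat and -1.58 for Slc18a2, and Th was not (0.31, adjusted p = 0.11). All 6 genes varied over the 7 ages by an F test, against 83.0% of all entries tested.

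**Figure D1:**
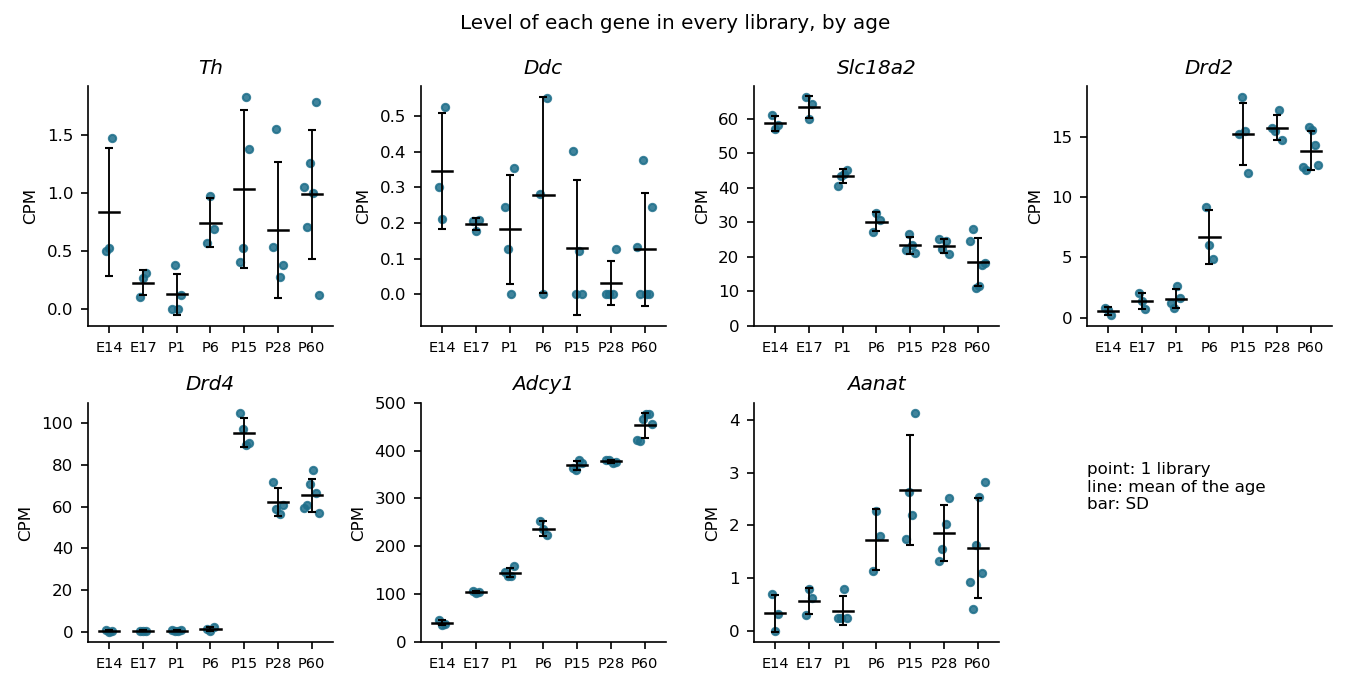
CPM (y axis, linear and different for each gene) of the 7 genes with an entry, by age (x axis); each point is 1 library, horizontal lines are means and bars are SD. Drd4 lies at or below 2.07 CPM through P6 and at or above 56.7 CPM from P15, Adcy1 is higher in each age group than in the one before up to P15, Slc18a2 is highest at E14 and E17, and Th and Ddc stay below 2 CPM.

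The 2 enzymes of dopamine synthesis were at the low end of detection at all ages. Th (Gene ID 21823, chr7:142892752-142931128, minus strand, GRCm38) gave between 0 and 15 reads per library. Its values were 0.5002, 0.527 and 1.47 CPM at E14, 0.102, 0.265 and 0.311 at E17, 0, 0.378, 0 and 0.118 at P1, and 0.565, 0.973 and 0.689 at P6. Up to P6 the lowest values therefore fell at E17 and P1, and the 4 P1 libraries lay below all 3 P6 libraries. The P15 libraries had 0.402, 0.527, 1.83 and 1.37 CPM, those at P28 had 0.533, 1.54, 0.271 and 0.377, and at P60 the values ran from 0.122 through a median of 1.02 to 1.79. Mature and embryonic libraries overlapped, and the log2 fold change of 0.30 (SE 0.17) was not called (limma, adjusted p = 0.11). Pooled over libraries the mature level was 1.75 times the embryonic level (95% interval 1.16 to 2.72, for counting error only). Th varied over the 7 ages (limma F test, adjusted p = 0.019). From P1 to P6 the log2 fold change of Th was 0.64 (SE 0.27, limma, adjusted p = 0.060). The pooled level at P6 was 6.37 times that at P1 (95% interval 2.10 to 25.9, counting error only). This step was called with edgeR on recovered reads (2.55, adjusted p = 0.024) and with a pseudocount of 0.1 (2.20, adjusted p = 0.0092). Without P1 replicate 2, P28 replicate 2, P60 replicate 5 or P60 replicate 6 the limma adjusted p was 0.044, 0.045, 0.049 or 0.039. For mature against embryonic retina the call was likewise gained without E14 replicate 3 (0.42, adjusted p = 0.039) or P60 replicate 6 (0.35, adjusted p = 0.046), and with edgeR on recovered reads (1.08, adjusted p = 0.036). In bulk tissue fewer cells of a type and less RNA per cell cannot be told apart, and the dopamine cells are a small share of the retina.

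Ddc (Gene ID 13195, chr11:11814101-11898144, minus strand) had at most 5 reads in any library. The 6 embryonic libraries held 16 reads in all, with 2 to 5 each, at 0.176 to 0.526 CPM. The 14 mature libraries held 11 reads in all, and 8 of them had 0. The pooled embryonic level was 2.62 times the mature level (95% interval 1.14 to 6.25, counting error only). With no filter on low values, the log2 fold change was -0.22 (SE 0.10, limma, adjusted p = 0.045). The gene overlaps 1700042O10Rik on the opposite strand, and whether the counting used strand is not given in the sources used here.

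Genes for the tetrahydrobiopterin cofactor of Th gave no common direction. Of 6 listed, 5 were tested, of which 2 were higher and 1 was lower in mature retina, with a median log2 fold change of 0.25. Gchfr, which encodes the feedback regulator of the first enzyme, was higher by 0.53. Its means of 0.104 CPM at E14 and 0.235 at E17 lay below the limit of detection. Qdpr, which regenerates the cofactor, was higher by 0.25, whereas Pcbd1 fell by 0.78 on the log2 scale. Gch1, the rate-limiting enzyme of the pathway, had a highest age mean of 0.504 CPM, at P6, and was not tested. Among genes for the breakdown of monoamines, 3 of the 4 tested (5 listed) were lower in mature retina and 1 was higher, with a median of -1.08. Monoamine oxidase A (Maoa) went from a mean of 29.8 CPM at E14 to 6.92 at P60 (log2 fold change -1.54). Aldh1a1, an aldehyde dehydrogenase that also makes retinoic acid, was lower (log2 fold change -1.67), as was Aldh2 (-0.61). Maob had age means of at most 0.415 CPM and was not tested.

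Of 10 factors known for dopaminergic identity in the midbrain, olfactory bulb or retina, 5 were tested, of which 2 were higher and 2 lower (median -0.19). Nr4a2 (Nurr1) rose from a mean of 14.0 CPM at E14 to 32.4 at E17 (log2 fold change 1.14) and was lower in mature than in embryonic retina (-0.98). Etv1 was lower too (-1.80). Nr4a1, which is also an immediate early gene, was higher by 2.07 and En2 by 0.59, with En2 at 0 in all libraries at E17. Pitx3 had age means of at most 0.485 CPM, and Lmx1a, Lmx1b, Foxa2 and En1 were not analysed here.

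Slc18a2 was the 1 gene of the 6 tested that was lower in mature retina. The gene lies at chr19:59260896-59296012 on the plus strand (Gene ID 214084) and overlaps Gm29261 on the opposite strand. Its values were 61.2, 57.0 and 58.2 CPM at E14 and 66.2, 59.9 and 64.4 at E17. They were 40.6, 43.5, 44.1 and 45.3 at P1 and 27.3, 32.8 and 30.6 at P6. No P1 library reached the embryonic range, and no P6 library reached the P1 range. The level was 23.4 ± 2.48 CPM (SD, n = 4) at P15 and 23.2 ± 2.05 (n = 4) at P28. The mature level was lower than the embryonic one, with a log2 fold change of -1.49 (SE 0.12, limma, adjusted p = 1.2e-12), which is 2.81-fold on the scale of CPM + 1, with no overlap between the 2 groups.

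At P60 Slc18a2 ran from 10.9 through a median of 17.9 to 28.02 CPM. Replicates 1 and 2 had 24.7 and 28.02 CPM and replicates 3 to 6 had 10.9 to 18.1, so the P60 group overlapped those at P15 and P28 through 2 libraries. The log2 fold change from P28 to P60 was -0.38 (SE 0.16, limma, adjusted p = 0.10). It was -0.48 (adjusted p = 0.023) without P60 replicate 1, -0.51 (adjusted p = 0.0089) without replicate 2 and -0.66 (adjusted p = 4.1e-05) without both. For the step from E17 to P1 the log2 fold change of -0.54 (SE 0.19) was not called (limma, adjusted p = 0.071). It was called without any 1 of P60 replicates 1 to 4, with adjusted p between 0.023 and 0.043. It was also called with edgeR on recovered reads (adjusted p = 0.017). In limma it was called with median-of-ratios scaling (adjusted p = 0.032) and with the 2 ages fitted alone (adjusted p = 2.8e-05). Of 37 alternatives 9 changed the call, and the highest adjusted p was 0.21.

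Ganglion cell markers were also lower in mature than in embryonic retina, and their courses differed from one another. The summed level of the 6 listed markers, none of them at 0, was 1104 to 1166 CPM at E14, 863 to 947 at E17, 471 to 521 at P1 and 453 to 519 at P60, and in mature retina 5 of the 6 were lower and 1 was higher. The sums were thus lower at E17 than at E14, where Slc18a2 was 63.5 and 58.8 CPM on average, and overlapped between P1 and P60, where Slc18a2 was 43.4 and 18.5 CPM. The sum joins markers of opposite course. From P1 to P6, where Slc18a2 fell, 4 of the 6 were lower, among them Pou4f1 (log2 fold change -1.13) and Rbpms (-1.12). The 2 that were higher at this step were Isl1 (1.81) and Nefl (0.49). Serotonin transporter mRNA (Slc6a4), which marks uptake of serotonin in early ganglion cells, had its highest mean, 2.20 CPM, at E17 and was lower in mature retina (log2 fold change -1.16). The part of these cells in the level of Slc18a2 was not tested. Among 7 vesicle and synaptic partners, 3 were higher and 3 lower in mature retina (median -0.04). Sncg, which is also a ganglion cell marker, was lower (-2.07), as was Slc10a4 (-0.94). Rit2 was higher by 3.11. Slc18a1, the other vesicular monoamine transporter, was higher by 0.58, with age means between 3.00 and 6.10 CPM. Of 5 markers of noradrenaline, serotonin and histamine cells, 3 were tested, of which 1 was higher and 1 lower (median 0.24), and their summed level was 0.738 to 1.30 CPM at E14 and 20.6 to 27.8 at P60. Hdc, which makes histamine, had means of 0.258, 2.37, 8.62 and 23.4 CPM at the last 4 ages, and was called at each of these steps (log2 fold changes 1.42, 1.46 and 1.40). Slc6a2, the noradrenaline transporter, which also carries dopamine, was highest at P6 with a mean of 4.47 CPM. It rose from P1 to P6 (log2 fold change 1.03) and fell from P6 to P15 (-1.59). Dbh was not analysed here.

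The 2 receptor genes of the set were among those that rose. Drd2 (Gene ID 13489, chr9:49340627-49408177, plus strand) had 0.8002, 0.633 and 0.210 CPM at E14, 2.04, 1.41 and 0.725 at E17, and 1.23, 0.756, 2.60 and 1.66 at P1. At P6 the libraries had 9.18, 6.06 and 4.83 CPM and at P15 15.3, 18.3, 15.5 and 12.0. Every P6 library lay above all P1 libraries and every P15 library above all P6 libraries. The level was then 15.8 ± 1.04 CPM at P28 (SD, n = 4) and 13.8 ± 1.61 at P60 (n = 6), and neither of these last steps was called. Drd2 was higher in mature than in embryonic retina by a log2 value of 3.07 (SE 0.14, limma, adjusted p = 8.0e-19).

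Drd4 (Gene ID 13491, chr7:141292006-141296464, plus strand) went from a few reads to many between P6 and P15, the interval in which mice open their eyes. Before that step no library held more than 15 reads. The values were 0.600, 0.105 and 0.421 CPM at E14, 0.511, 0.176 and 0.518 at E17, and 0.981, 0.126, 0.226 and 0.946 at P1. They were 1.41, 0.541 and 2.07 at P6 and 105, 97.2, 89.7 and 90.6 at P15. The log2 fold change for this step was 5.42 (SE 0.20, limma, adjusted p = 1.6e-19), and the pooled level at P15 was 75.0 times that at P6 (95% interval 52.4 to 111, counting error only). P28 libraries had 71.8, 59.1, 56.7 and 60.8 CPM, all below the P15 libraries. At P60 the values ran from 57.0 through a median of 63.7 to 77.7. Over mature against embryonic retina the log2 fold change was 5.74 (SE 0.13, adjusted p = 2.8e-27), and the pooled ratio was 190 (95% interval 127 to 300.2). The small rise from P1 to P6 (0.57, SE 0.20, adjusted p = 0.026) depended on single libraries. Its adjusted p was 0.11 without P1 replicate 2, 0.091 without P1 replicate 3, 0.091 without P6 replicate 1 and 0.24 without P6 replicate 3. With edgeR the log2 fold change was larger, 1.196, and the adjusted p was 0.053.

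Photoreceptor markers also rose over development, with another timing than Drd4. All 8 listed markers were higher in mature retina (median log2 fold change 7.07) and none was at 0 at any age. Their summed level was 100.1 to 107 CPM at E14 and 3599 to 4184 at P6. The sums at P15 were 16063 to 17221 CPM, those at P28 were 22726 to 24176, and those at P60 were 23506 to 28612. From P1 to P6, where Drd4 stayed at or below 2.07 CPM, 7 of the 8 were already higher, Crx from a mean of 393 to 1474 CPM and Nrl from 40.5 to 299. From P6 to P15, the step at which Drd4 rose, 6 of the 8 were higher and 2 were lower, Crx (log2 fold change -0.52) and Gngt2 (-1.08). The part of photoreceptor number in the level of Drd4 was not tested.

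Among the 4 dopamine receptor genes with an entry, the leading one changed between P6 and P15. Levels per length (CPM per kb of annotated exon) are used to compare genes. The D1 receptor gene Drd1 had 7.07 ± 0.720 CPM per kb at P6 (SD, n = 3), which was 68.2% of the sum over the 4 receptors, and Drd4 had 0.479 ± 0.274, which was 4.63%. At P15 Drd4 had 34.1 ± 2.50 CPM per kb (n = 4), or 70.4% of the sum, with 67.7% to 74.0% in single libraries, and Drd1 had 8.18 ± 2.41, or 16.6%. Drd2 held 25.3% at P6 and 12.3% at P15, while its own level per length went from 2.63 to 5.99 CPM per kb. At P60 the shares were 62.8% for Drd4, 21.9% for Drd1, 14.6% for Drd2 and 0.708% for Drd5. Both other receptors tested, of 3 listed, were higher in mature retina. Drd1 was higher by a log2 value of 2.36, with calls for the steps to E17 (1.35) and to P6 (0.92) and, less stably, to P1 (0.55), and Drd5 by 0.98 from a mean of 0 CPM at E14 to a highest mean of 1.40 at P28. Drd3 was not analysed here.

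**Figure D2:**
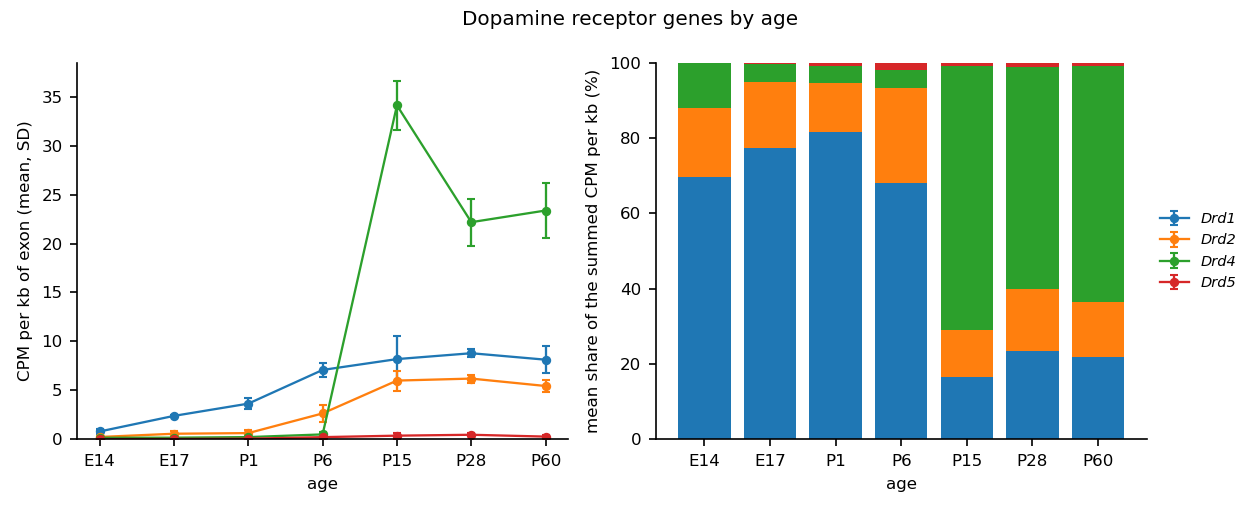
Left, level of the 4 dopamine receptor genes in CPM per kb of exon (y axis) by age (x axis), with means and SD over libraries; right, mean share of each gene in the summed CPM per kb of the 4 (y axis, percent). Drd1 holds 68.2% of the sum at P6 and Drd4 holds 70.4% at P15.

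Adcy1 rose step by step. The gene (Gene ID 432530, chr11:7063489-7178506, plus strand) had 46.9, 36.8 and 38.7 CPM at E14, 108, 103 and 106 at E17, and 147, 139, 139 and 158 at P1. It had 253, 235 and 223 CPM at P6 and 364, 358, 380 and 374 at P15. No 2 neighbouring groups overlapped up to P15. P28 libraries had 381, 380, 374 and 377 CPM and overlapped those at P15. At P60 the lowest, median and highest values were 420.5, 460.2 and 477 CPM, all above P28. The log2 fold change over mature against embryonic retina was 2.58 (SE 0.05, limma, adjusted p = 6.5e-30), or 5.99-fold on the scale of CPM + 1. At P60 replicates 1 and 2 had 420.5 and 421 CPM and replicates 3 to 6 had 455 to 477.

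Other adenylyl cyclases also rose. Of the 8 other membrane cyclases 7 were tested, of which 5 were higher and 1 lower in mature retina, with a median log2 fold change of 1.45. Adcy8, another calcium-stimulated type, was higher by 3.52, Adcy2 by 1.55, Adcy5 by 1.49, Adcy6 by 1.45 and Adcy9 by 1.26, and Adcy3 was lower (-0.54). Per length, Adcy1 had 3.33 ± 0.438 CPM per kb at E14 (SD, n = 3), below Adcy6 at 7.49 ± 0.655. At P15 it had 30.1 ± 0.802 (n = 4), above Adcy6 at 22.6 ± 0.384. Its mean share of the sum over the 9 cyclases was 14.4% at E14, 22.4% at E17, 26.7% at P6, 33.5% at P15 and 36.2% at P60.

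**Figure D3:**
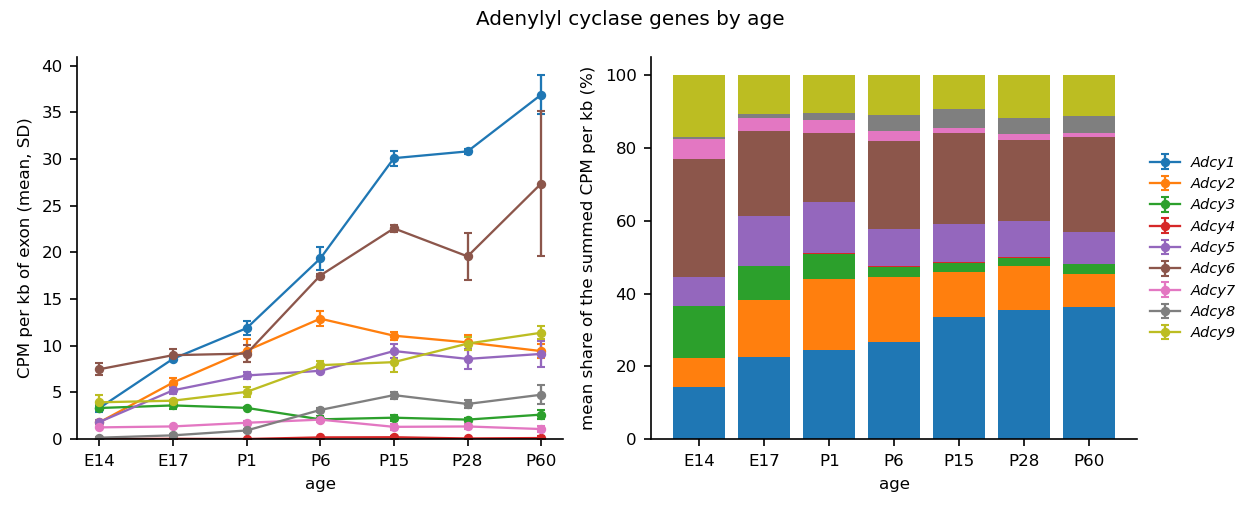
Left, level of the 9 membrane adenylyl cyclase genes in CPM per kb of exon (y axis) by age (x axis), with means and SD over libraries; right, mean share of each gene in the summed CPM per kb of the 9 (y axis, percent). The mean share of Adcy1 is 14.4% at E14 and 36.2% at P60.

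Genes downstream of cAMP were mixed. Of 16 effector and feedback genes, all tested, 7 were higher and 6 lower in mature retina, and their median log2 fold change was 0.11. Higher were the phosphodiesterases Pde4b (2.62) and Pde4a (2.01) and the cAMP-activated exchange factor Rapgef4 (2.37). Lower were Prkar2b (-1.40), a regulatory subunit of protein kinase A, Pde10a (-1.01) and the transcription factor Creb1 (-0.81).

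Aanat (Gene ID 11298, chr11:116586432-116597680, plus strand) was low and rose between P1 and P6. It gave 0 to 30 reads per library. The values were 0.7002, 0 and 0.316 CPM at E14, 0.307, 0.794 and 0.621 at E17, and 0.245, 0.252, 0.792 and 0.237 at P1. They were 1.13, 2.27 and 1.79 at P6 and 1.74, 2.63, 2.19 and 4.12 at P15. All P6 libraries lay above all P1 libraries. P28 libraries had 1.33, 1.54, 2.03 and 2.51 CPM, and P60 values ran from 0.422 through a median of 1.36 to 2.82, so the P60 group reached into the embryonic range. The log2 fold change from P1 to P6 was 0.98 (SE 0.27, limma, adjusted p = 0.0046), and that of mature against embryonic retina was 1.02 (SE 0.18, adjusted p = 5.2e-06). At P60 replicates 1 and 2 had 0.918 and 0.422 CPM and replicates 3 to 6 had 1.099 to 2.82. As all tissue was taken in the light phase, these are daytime levels.

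The enzymes before and after Aanat were scarce as well. Of 6 genes for serotonin synthesis, the last step of melatonin synthesis and the melatonin receptors, 3 were tested, of which 2 were higher and 1 lower in mature retina (median 0.74). Tph1, tryptophan hydroxylase, had a mean of 0.478 CPM at P1, 6.24 at P6 and 2.25 at P15, with log2 fold changes of 2.29 and -1.16 for these steps, and was higher in mature retina by 1.01. Tph2 was higher by 0.74, with a highest age mean of 1.03 CPM. Asmt, which completes melatonin synthesis, had age means of at most 0.160 CPM and was at 0 in all libraries at P15 and P28. The melatonin receptor gene Mtnr1a rose from E14 to E17 by a log2 value of 1.37, to a mean of 4.74 CPM, and was lower in mature retina (-1.35). Mtnr1b and Gpr50 were not analysed here.

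Adcy1, Drd4 and Aanat are known to follow daily rhythms in the retina, so the clock genes were examined beside them. Of 16, all tested, 13 were higher and 1 was lower in mature retina, with a median log2 fold change of 1.99 beside -0.06 over all entries tested. Dbp was higher by 3.99, Per3 by 3.44, Nr1d1 by 2.84, Per1 by 2.10 and Per2 by 1.83. Rorb, which is also a regulator of photoreceptor fate, was lower (-1.29). From P6 to P15 13 of the 16 were called, against 33.4% of all entries tested, 11 as higher and 2 as lower. Among the higher were Dbp (1.98) and Per3 (1.97, from a mean of 51.3 to 204 CPM), and the lower were Rorb (-0.61) and Arntl (-0.52). As the hour of each library was not known, the part of the hour of collection in these values was not tested. Of 6 immediate early genes, 4 were higher and 1 lower in mature retina (median 0.92), with Egr1 higher by 3.93 and Fos by 3.36 and Junb lower (-1.15).

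The steps between neighbouring ages differed in which genes were called. Adcy1 was called alone from E14 to E17 (log2 fold change 1.36, SE 0.08, adjusted p = 1.7e-14), a step at which 10.6% of all entries tested were called. It was again called alone from E17 to P1 (0.46, SE 0.07, adjusted p = 3.1e-05), against 9.21% of all entries. From P1 to P6, 5 of the 6 genes were called, against 38.3% of all entries: Drd2 (1.60), Aanat (0.98), Adcy1 (0.70), Drd4 (0.57) and, as lower, Slc18a2 (-0.51, SE 0.19, adjusted p = 0.031). edgeR on recovered reads also called 5, with Th in place of Drd4. Slc18a2 lost this call without P1 replicate 2, 3 or 4 or P6 replicate 1 or 3, with adjusted p between 0.054 and 0.13.

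From P6 to P15, 3 of the 6 were called, against 33.4% of all entries, namely Drd4 (5.42), Drd2 (1.104, SE 0.22, adjusted p = 0.00021) and Adcy1 (0.64, SE 0.07, adjusted p = 2.4e-08). From P15 to P28 limma called 0 of the 6, against 2.72% of all entries. At an unadjusted p below 0.05 there was 1, Drd4 (-0.62, SE 0.19, adjusted p = 0.075), and edgeR on recovered reads also called 1, Drd4 (-0.60, adjusted p = 0.023). Without P6 replicate 2 the limma adjusted p for Drd4 was 0.044. It was 0.043 with replicate number as a block, 0.048 without P60 replicates 1 and 2, and 3.2e-05 with the 2 ages fitted alone. Of 37 alternatives 6 changed the call for Drd4 at this step, and the highest adjusted p was 0.58. From P28 to P60 Adcy1 was called (0.26, SE 0.06, adjusted p = 0.010), against 12.9% of all entries, and with the 2 ages fitted alone its adjusted p was 0.13. Without P60 replicates 1 and 2 its log2 fold change was 0.31 (limma, adjusted p = 0.00015), and Slc18a2 was called as well.

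**Figure D4:**
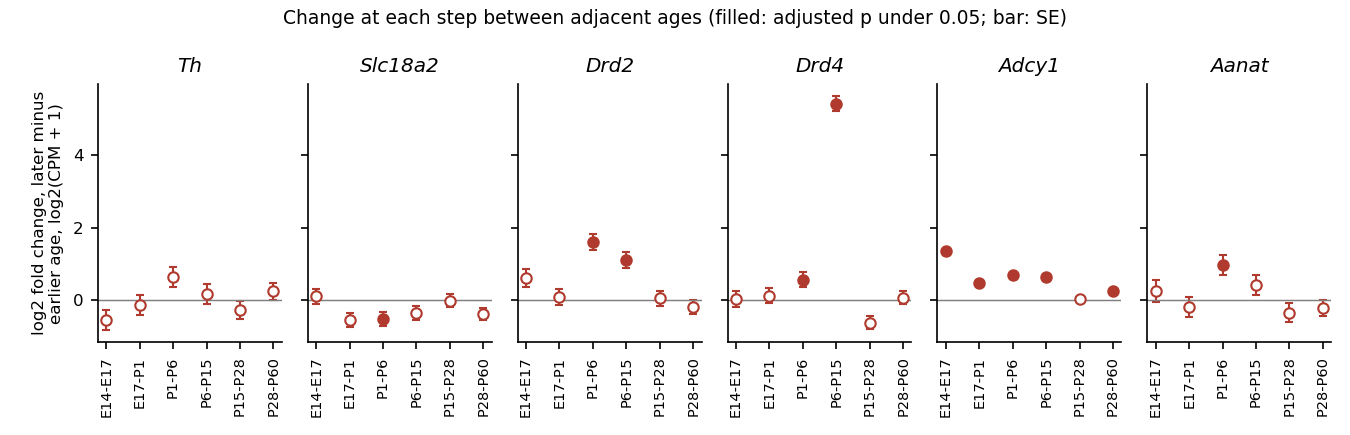
Log2 fold change from the earlier to the later age on the log2(CPM + 1) scale (y axis, the same for all genes) for the 6 genes tested at each of the 6 steps between neighbouring ages (x axis); bars are SE and filled points have an adjusted p below 0.05. The step of Drd4 from P6 to P15, 5.42, stands above all others, and Adcy1 has filled points at 5 of 6 steps.

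Compared per length, the order of the genes turned over during development. At E14 Slc18a2 led with 15.5 ± 0.578 CPM per kb (SD, n = 3), followed by Adcy1 with 3.33 ± 0.438, and the other 5 genes lay at or below a mean of 0.353, each overlapping its neighbour. At P1 Adcy1 (11.9 ± 0.763, n = 4) and Slc18a2 (11.5 ± 0.528) overlapped. At P15 Drd4 (34.1 ± 2.50) was followed by Adcy1 (30.1 ± 0.802) without overlap, and Slc18a2 (6.17 ± 0.656) and Drd2 (5.99 ± 1.02) overlapped. At P60 the order was Adcy1 (36.9 ± 2.09, n = 6), Drd4 (23.4 ± 2.83), Drd2 (5.43 ± 0.634), Slc18a2 (4.88 ± 1.82), Aanat (1.16 ± 0.699), Th (0.417 ± 0.235) and Ddc (0.060 ± 0.075). Of these, Drd2 and Slc18a2 overlapped, as did Aanat and Th, and Th and Ddc.

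Genes with the most similar course were sought by Pearson's r of log2(CPM + 1) over the 27 libraries among 18225 candidates with a Gene ID and a mean of at least 1 CPM. The libraries share ages, so high values are common, and they are given as a description. Closest to Drd4 were A930014D07Rik (0.994), Opn1mw (0.993), which encodes the middle-wavelength cone opsin, and Il33 (0.990). Closest to Adcy1 were Cygb (0.993), encoding cytoglobin, Scg2 (0.992), encoding secretogranin II, and Rbp3 (0.991), encoding the interphotoreceptor retinoid-binding protein. For Drd2 they were Tspan7 (0.984), Fam161a (0.983) and BC046251 (0.983), and 646 candidates exceeded 0.95. For Slc18a2 they were 3110005L21Rik (0.973), Dcp2 (0.970) and D430047D06Rik (0.964), and 22 candidates exceeded 0.95. Aanat was matched less closely, by Myo15b (0.886), Exoc3l (0.885) and Gm10803 (0.873). The nearest values for Th (Stk39, 0.707) and Ddc (Arpc1a, 0.663) rest on few reads.

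Markers of amacrine cells, the class that holds the dopamine cells, were measured for comparison. Of 7 listed, 6 were higher and 1 lower in mature retina (median 2.21), with none at 0. Their summed level was 154 to 175 CPM at E14, 600.4 to 679 at E17, 886 to 1006 at P1 and 599 to 644 at P60. The sum was highest at P1, but it joins markers of opposite course. From P1 to P6, 4 of the 7 were higher, Slc6a9 (log2 fold change 1.66), Slc32a1 (0.71), Gad1 (0.51) and Calb2 (0.47). The 3 lower were Gad2 (-1.87), Tfap2a (-1.19) and Tfap2b (-0.51). The mean of Th was lowest at P1, from 4 reads in all. The part of amacrine cell number in the level of Th was not tested. Markers of neighbouring tissues were low. Of 7 markers of retinal pigment epithelium 3 of 6 tested were higher and 0 lower, with summed levels of 4.64 to 34.5 CPM over all libraries. Of 6 lens markers 1 of 3 tested was higher and 1 lower, with sums of 2.75 to 7.85 CPM. Of 5 blood markers 2 of 4 tested were higher and 0 lower, with sums of 10.7 to 50.3 CPM. From P1 to P6, the step at which 5 of the 6 genes were called, all 4 blood markers tested were higher (median 1.48, Hba-a1 3.25) and their sum went from between 10.7 and 15.5 to between 39.6 and 50.3 CPM. At the same step 3 of the 6 pigment epithelium markers tested were higher (median 0.53), with sums of 7.69 to 15.7 CPM at P1 and 16.4 to 32.2 at P6. The part of these tissues in the levels of the 6 genes was not tested.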

How the data were processed

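Retina of C57BL/6J mice was profiled at 7 ages by RNA sequencing of total RNA (SMARTer kit). Per the submitters' processing notes, reads were mapped with STAR to mm10. The deposited values are CPM per gene, made by the authors; the annotation and the strand setting of the counting are not given in the sources used here. Whole reads were recovered from the CPM values (100% of values within 0.1 of a whole read), giving 7077781 to 11332323 reads per library. Values were tested with limma 3.58.1 (R 4.3.3, mean-variance trend) on log2(CPM + 1), entries reaching 1 CPM in 3 or more libraries, age as factor, 27 libraries in 1 fit, two-sided, Benjamini-Hochberg over 31760 entries, called below an adjusted p of 0.05. The mature minus embryonic contrast weighted ages equally. Fold changes on this scale understate those of low genes. edgeR 4.0.16 was an alternative, as were other pseudocounts, filters and scalings, and leaving out each library. On simulated reads for mature against embryonic retina (30578 features, 200 changed by a log2 value of 1.5), limma recovered 200 with 2 false calls and edgeR 200 with 4. The changed features were drawn only from those above a minimum mean read count. All features had the same simulated spread, and the others did not change with age. The simulation therefore does not show how well changes of low genes such as Th, Ddc and Aanat are found. Pooled ratios carry exact 95% intervals.

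The 8 genes and all comparison lists (tetrahydrobiopterin, monoamine breakdown, receptors, serotonin and melatonin, cyclases, cAMP effectors, clock, identity factors, vesicle partners, cell and tissue markers, immediate early genes) were chosen with earlier results of these data known. Named were the 8 genes, genes of these lists, and for each of the 8 the 3 genes most alike. Positions and exon lengths are from GENCODE vM21 (GRCm38). Libraries of 1 age differed beyond counting noise in all 42 pairs. Nothing in the sources says that libraries of 1 age came from separate litters or days, so p-values measure the spread between these libraries. Intervals and detection limits cover counting error only. Some genes of the lists enter the counts but are not reported here by name.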

Additional observations from a re-analysis of the deposited data

Results flagged for a closer look

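Among the 28 groups of 4 or 6 libraries (7 genes at P1, P15, P28 and P60), 2 held a library far from the others by Dixon's criterion, which chance alone gives in about 1 of 20 groups. Aanat in P1 replicate 3 was 0.792 CPM, from 7 reads, beside 0.237 to 0.252 CPM in the other 3 libraries. Ddc in P28 replicate 4 was 0.126 CPM, from 1 read, beside 0 in the other 3.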

How the results depend on the processing

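No alternative turned the direction of a fold change given above for the 6 genes tested, which leaves out Ddc. Of 768 comparisons of such a fold change with an alternative, 727 kept their side of the threshold, 29 gained a call and 12 lost one. With a filter at a mean of 10 CPM, 3 of the genes were tested, and the counts called became 3 for mature against embryonic retina, 3 for P1 to P6 and 3 over the 7 ages, because fewer were tested. A pseudocount of 0.1 gave 2 calls for E14 to E17. For E17 to P1, median-of-ratios scaling, edgeR and the ages compared fitted alone (3 genes tested) gave 2 each. For P15 to P28, edgeR and the ages compared fitted alone gave 1. For P28 to P60 the ages compared fitted alone gave 0. Chosen after seeing the data, edgeR without E14 replicate 1 gave 2 for E17 to P1 and 1 for P15 to P28, and limma without P60 replicates 1 and 2 gave 2, 1 and 2 for E17 to P1, P15 to P28 and P28 to P60. Leaving out single libraries gave 1 to 2 calls for E14 to E17, 1 to 2 for E17 to P1, 3 to 6 for P1 to P6, 0 to 1 for P15 to P28 and 1 to 2 for P28 to P60. Replicate numbers did not pair the libraries, since 0 of 20 same-numbered pairs of neighbouring ages had deviations correlated above 0.1 (-0.096 to 0.093). With the replicate block, P15 to P28 gave 1 call and the other counts stayed within 1.5 times. Th gained its P1 to P6 call in that fit (adjusted p = 0.037). The cause of these shifts was not tested. edgeR moved the median of all entries by 0.10 (log2) for mature against embryonic retina. Depth limits Th, Ddc and Aanat, with at most 30 reads per library.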
